A study of Arabidopsis thaliana with 18 samples.

Results

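The 10 photoreceptor genes of Arabidopsis thaliana, the phytochromes PHYA to PHYE, the cryptochromes CRY1 and CRY2, the phototropins PHOT1 and PHOT2 and the UV-B receptor UVR8, were examined in leaves of 3 genotypes before and after prolonged darkness. The members were taken by locus identifier, a rule that contains no measured value, and all 10 were found among the 27628 genes of the deposited count table. Leaf RNA was sequenced in 18 libraries that form 6 groups of 3: ml2 at day 7 and at day 0, ml5 at day 7 and at day 0, and WT at day 7 and at day 0 of dark treatment. The labels call the ml2 and ml5 lines knockdowns, and the annotation places ML2 and ML5 in the MEI2-like family of RNA-binding proteins. How the knockdowns were made, the accession of the WT, the age of the plants and the hour of harvest were not stated in the labels. No group was kept in light until day 7, so effects of darkness cannot be told apart from those of 7 days of age. The extraction protocol mentions doxycycline, which no sample label assigns to any library. Column names of the table carry CK and D, which were taken by inference to mark day 0 and day 7. A bare number in the names was likewise matched to ml2 or ml5. Since no source says that the libraries of a group came from separate plants, p-values measure the spread between these libraries, which may be technical.

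Plants read the colour, strength and direction of light through these receptors. Phytochromes carry a bilin chromophore and switch between a red-absorbing form and an active far-red-absorbing form, which enters the nucleus and acts on the PIF transcription factors. Cryptochromes and phototropins absorb blue light through flavins: cryptochromes act largely on gene expression, and phototropins are kinases of the plasma membrane that steer bending, stomatal opening and chloroplast movement. UVR8 senses UV-B through its own tryptophans and, like the active phytochromes and cryptochromes, restrains the COP1/SPA ubiquitin ligase.

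Libraries held 14914600 to 20417382 counts each. The targeted genes followed the labels. ML2 averaged 6.35 CPM (counts scaled to a common library size by TMM) in ml2 and 61.2 CPM in WT at day 0, which is 10.4% of WT, and it stood at 11.02% of WT at day 7. ML5 in ml5 stood at 0.578% of WT at day 0 and at 0.211% at day 7. One library stood apart: ml2 day 0 replicate 1 differed from the other ml2 day 0 libraries with a chi-square per degree of freedom of 8.96 and 13.3, where all other pairs within a group lay between 1.77 and 5.91. Photoreceptor calls that change without this library are given both ways. Levels, shares and ratios are given with all libraries unless stated. Markers of other organs were near 0: the 4 flower markers (AP1, AP3, AG and PI) summed to between 1.46 and 4.28 CPM and the 3 root markers (PYK10, COBL9 and RHD6) to between 0.917 and 6.39 CPM, with RHD6 at 0 in all 6 groups.

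After darkness most photoreceptor genes had lower transcript levels than before it. In ml2, 7 of the 10 fell and PHYB rose. In ml5, 7 fell and PHYB rose as well, with PHYA among those that fell. In WT, 7 fell and PHYA rose. CRY1 and PHYE fell most in WT, 3.28-fold and 3.11-fold, and CRY2 passed the test in none of the 3 genotypes.

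The background for these counts was high. Of all 19493 genes tested, 39.6% were called higher and 40.2% lower in ml2, 39.7% higher and 40.1% lower in ml5, and 42.0% higher and 39.9% lower in WT, at an adjusted p under 0.05 in edgeR's quasi-likelihood test. The median log2 fold change of the 10 genes was -0.56 in ml2, -0.53 in ml5 and -0.63 in WT, where the medians over all genes tested were 0.00, 0.00 and 0.04. Scaling by library size alone raised the median of all genes by 0.23 in ml2, 0.41 in ml5 and 0.38 in WT, and the photoreceptor counts then became 3 higher and 6 lower in ml2, 4 higher and 5 lower in ml5, and 3 higher and 5 lower in WT. Over all genes that scaling put 59.1% of the calls in ml2, 65.3% in ml5 and 64.3% in WT on the higher side, against 49.6%, 49.7% and 51.3% with TMM. Without ml2 day 0 replicate 1, 2 photoreceptor genes rose and 6 fell in ml2 after darkness.

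Markers of leaf cell types moved between the days as well. The 3 mesophyll markers RBCS1A, LHCB2.1 and CA1 summed to 244 to 255 CPM in ml2 at day 7 against 15560 to 16690 CPM at day 0, to 586 to 597 CPM in ml5 at day 7 against 22120 to 22880 CPM at day 0, and to 292 to 313 CPM in WT at day 7 against 24390 to 24870 CPM at day 0. In WT the 3 phloem markers summed to 180 to 185 CPM at day 7 against 332 to 359 CPM at day 0, the 3 epidermis markers to 24.3 to 27.8 CPM against 102 to 107 CPM, and the 3 xylem markers to 0.0467 to 0.252 CPM against 3.78 to 4.86 CPM. The 3 guard cell markers summed to 73.5 to 76.7 CPM in WT at day 7 and 55.5 to 62.5 CPM at day 0. In ml2 the phloem sums were 161 to 182 CPM at day 7 against 358 to 426 CPM at day 0, the epidermis sums 24.9 to 27.7 against 74.5 to 87.2 CPM, the xylem sums 0.244 to 0.369 against 4.04 to 6.44 CPM and the guard cell sums 63.1 to 71.7 against 47.5 to 51.2 CPM. In ml5 the phloem sums were 148 to 159 CPM at day 7 against 408 to 415 CPM at day 0, the epidermis sums 27.8 to 28.9 against 86.0 to 89.8 CPM, the xylem sums 0.0428 to 0.253 against 4.78 to 6.23 CPM and the guard cell sums 50.2 to 56.2 against 54.8 to 58.6 CPM. Among these lists PDF1 was at 0 in ml5 and WT at day 7 and in ml2 at day 0, and IRX1 was at 0 in ml5 and WT at day 7. The sums hide members that went opposite ways. Of the phloem markers SUC2 fell in ml2 (-2.55), ml5 (-2.62) and WT (-2.45), while APL rose (0.73, 0.50 and 1.07) and SWEET12 rose in ml2 (0.32) and WT (2.02) and fell in ml5 (-0.28). Of the guard cell markers MYB60 fell in all 3 genotypes (-0.86, -0.55 and -1.42), while KAT1 rose in ml2 (0.73) and WT (0.69) and FAMA fell in ml5 (-0.29). Fewer cells of a type and changed marker transcript levels within cells cannot be told apart in such bulk samples. The part of these shifts in the photoreceptor results was not tested.

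**Figure D1:**
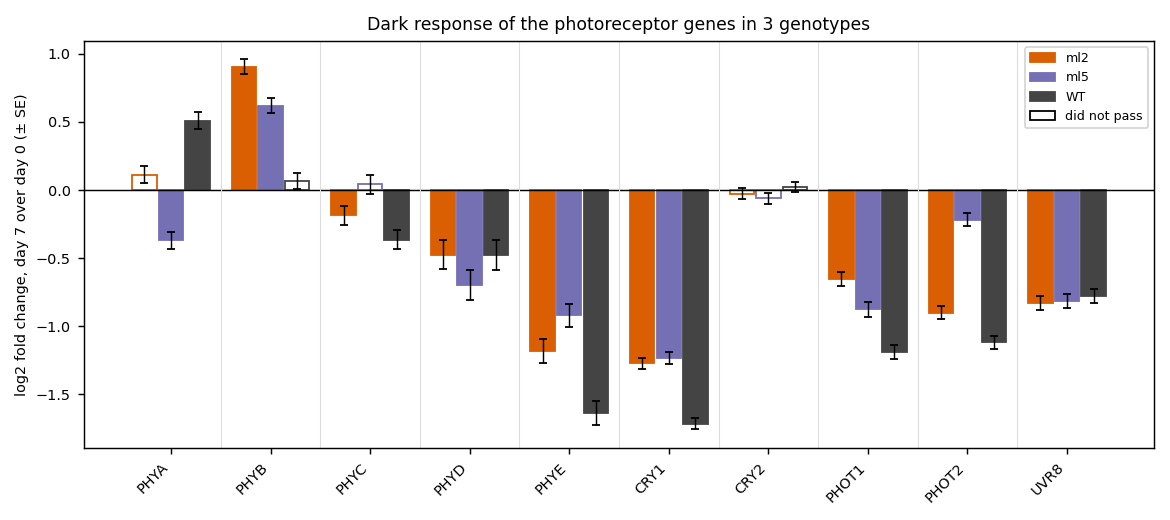
Log2 fold change of each photoreceptor gene, day 7 over day 0, in ml2, ml5 and WT, with bars for the estimate, whiskers for its SE (3 libraries per group, edgeR) and open bars for values that did not pass. PHYA is above 0 in WT (0.51) and below 0 in ml5 (-0.37, but 0.04 when scaled by library size alone), PHYB rises in ml2 and ml5, and CRY2 lies close to 0 throughout (0.20 to 0.40 when scaled by library size alone).

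PHYA (AT1G09570, TAIR10.1 chromosome 1, 3095160 to 3100819, minus strand) encodes the phytochrome whose protein accumulates in darkness, is degraded in light and senses far-red light. In ml2 it had 251, 278 and 262 CPM at day 7 against 284, 221 and 228 CPM at day 0. In ml5 it had 244, 249 and 245 CPM at day 7 against 301, 320 and 332 CPM at day 0. In WT it had 253, 245 and 242 CPM at day 7 against 180, 165 and 174 CPM at day 0. All 9 libraries of day 7 lay between 242 and 278 CPM, whereas those of day 0 separated by genotype, with ml5 above ml2 and ml2 above WT and no overlap between these groups. From day 0 to day 7 PHYA rose in WT (log2 fold change 0.51 ± 0.06 SE, adjusted p = 1.77e-08) and fell in ml5 (-0.37 ± 0.06, adjusted p = 3.98e-06), a fall that library-size scaling turned to 0.04. In ml2 the change was 0.11 ± 0.06 (adjusted p = 0.102); without ml2 day 0 replicate 1, its highest day 0 library, it was 0.23 and passed (adjusted p = 7.87e-06), as it did with RLE size factors (0.14, adjusted p = 0.0464) and with library sizes alone (0.34).

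PHYB (AT2G18790, chromosome 2, 8139756 to 8144461, plus strand) encodes the main light-stable red-light receptor of green plants. ml2 libraries held 106, 112 and 110 CPM at day 7 against 62.1, 53.7 and 59.5 CPM at day 0. ml5 libraries held 102, 101 and 105 CPM at day 7 against 67.1, 67.0 and 67.2 CPM at day 0. WT libraries held 70.1, 72.6 and 65.8 CPM at day 7 against 65.9, 68.6 and 64.5 CPM at day 0. The ml2 and ml5 libraries of day 7 stood above all 12 others, and the days overlapped in WT alone. The rise was 0.90 ± 0.06 in ml2 (adjusted p = 1.74e-15) and 0.62 ± 0.06 in ml5 (adjusted p = 1.85e-11), and the value in WT was 0.07 ± 0.06 (adjusted p = 0.271), which passed with library sizes alone (0.45).

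The region before each gene was searched for 3 short sequences known from light- and clock-regulated promoters: the G-box CACGTG, bound by PIF and HY5 proteins, the evening element AAAATATCT and the site CACGCGC of the transcription factors FHY3 and FAR1. Windows of 250 bases before and 50 bases after each annotated gene start were read on both strands from the RefSeq TAIR10.1 genome. PHYB and PHYD were the members whose windows held a match, and they are printed for that reason, on the strand of the gene with the matches in capitals. The other 8 members had none of these letters in their windows.
PHYB chr2:8139506-8139805 plus strand: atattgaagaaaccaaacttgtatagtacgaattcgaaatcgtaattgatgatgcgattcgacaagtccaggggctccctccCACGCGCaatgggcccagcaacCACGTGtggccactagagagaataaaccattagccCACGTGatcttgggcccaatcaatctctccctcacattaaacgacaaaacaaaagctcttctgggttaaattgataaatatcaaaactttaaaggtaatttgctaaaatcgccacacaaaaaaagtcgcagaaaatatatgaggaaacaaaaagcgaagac
PHYD chr4:9199791-9200090 minus strand: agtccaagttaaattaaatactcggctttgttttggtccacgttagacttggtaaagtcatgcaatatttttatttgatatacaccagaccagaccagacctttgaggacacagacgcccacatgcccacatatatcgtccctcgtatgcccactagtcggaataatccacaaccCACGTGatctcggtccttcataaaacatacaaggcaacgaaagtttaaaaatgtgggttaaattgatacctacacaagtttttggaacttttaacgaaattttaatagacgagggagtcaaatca
The PHYB window held 2 G-boxes, with first bases at -146 and -111 relative to the gene start, and 1 FHY3/FAR1 site at -168. In the PHYD window 1 G-box began at -75. None of these matches overlapped another, and the G-box reads the same on both strands. Of 27418 windows of all genes in the table with an annotated start, 7.67% held a G-box, 2.82% an evening element and 1.34% an FHY3/FAR1 site. A match describes letters and was not tested for binding.

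PHYD (AT4G16250, chromosome 4, 9195247 to 9199840, minus strand) encodes the closest relative of PHYB. Levels in ml2 were 12, 15.8 and 12 CPM at day 7 against 20.3, 17.6 and 17.4 CPM at day 0. Levels in ml5 were 11.2, 11.4 and 11.4 CPM at day 7 against 18.6, 17.3 and 19.2 CPM at day 0. Levels in WT were 12.7, 14.2 and 12.1 CPM at day 7 against 19.5, 15.6 and 19.0 CPM at day 0. The days did not overlap in any genotype. PHYD, whose promoter shares the G-box with PHYB, fell in ml2 (-0.47 ± 0.10), ml5 (-0.70 ± 0.11) and WT (-0.48 ± 0.11), with the largest adjusted p in WT at 0.000186. With library sizes alone its WT value was -0.10 and did not pass.

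PHYC (AT5G35840, chromosome 5, 14007812 to 14011848, plus strand) and PHYE (AT4G18130, chromosome 4, 10042137 to 10046346, minus strand) encode light-stable phytochromes that pair with other members of the family. PHYC had 30.1, 31.8 and 29.4 CPM in ml2 at day 7 against 36.1, 32.3 and 35.5 CPM at day 0, and fell by 0.19 ± 0.07 (adjusted p = 0.0161). In ml5 it had 34.1, 32.5 and 31.9 CPM at day 7 against 30.9, 32.0 and 32.8 CPM at day 0, overlapping levels with a change of 0.04 ± 0.07 that did not pass (adjusted p = 0.583). In WT it had 32.6, 34.9 and 29.1 CPM at day 7 against 42.4, 39.7 and 42.4 CPM at day 0, without overlap, and fell by 0.37 ± 0.07 (adjusted p = 1.93e-05). The fall of PHYC turned to 0.04 in ml2 and to 0.01 in WT with library sizes alone, neither of which passed. In ml2 it was also lost without ml2 day 0 replicate 1 (-0.15, adjusted p = 0.0557), without ml2 day 0 replicate 3 (-0.17, adjusted p = 0.0532) and without ml2 day 7 replicate 3 (-0.16, adjusted p = 0.0659).

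PHYE fell in every genotype. The ml2 replicates gave 15.6, 18 and 14.5 CPM at day 7 against 40.0, 34.6 and 34.5 CPM at day 0. The ml5 replicates gave 20.7, 19.3 and 22.3 CPM at day 7 against 35.4, 42.5 and 40.1 CPM at day 0. The WT replicates gave 15.8, 17.6 and 15.5 CPM at day 7 against 52.6, 47.0 and 52.4 CPM at day 0. The days were far apart in each genotype, and WT had the highest day 0 levels. PHYE fell by 1.18 ± 0.09 in ml2 (adjusted p = 2.54e-13), by 0.92 ± 0.09 in ml5 (adjusted p = 4.49e-11) and by 1.64 ± 0.09 in WT (adjusted p = 4.59e-17). Its annotation shares 60 bases with SSP4b on the same strand, a gene with group means of 24.7 to 47.1 CPM, so reads there could have been counted for either gene.

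**Figure D2:**
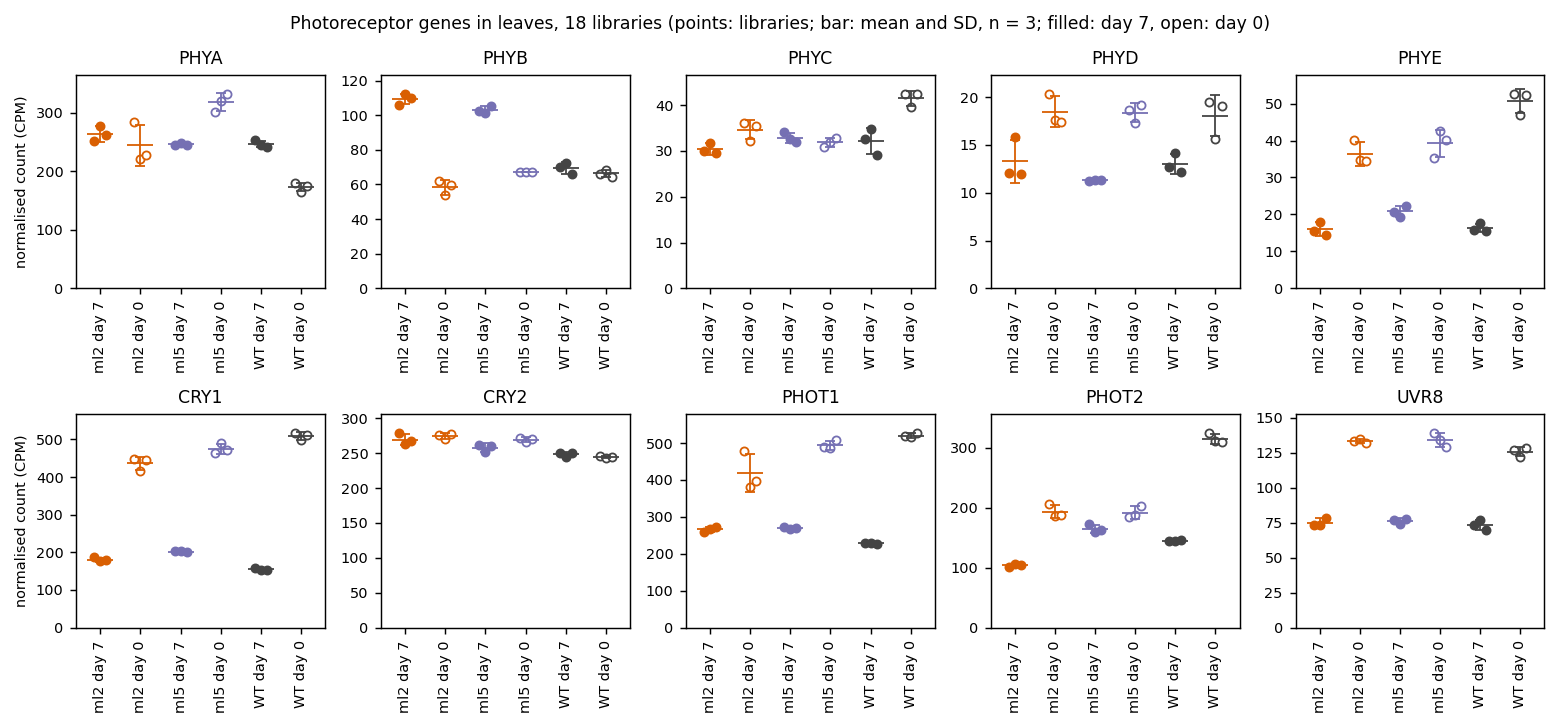
Normalised counts (CPM) of the 10 photoreceptor genes, 1 panel per gene, in ml2, ml5 and WT, with day 7 (filled) left of day 0 (open). Points are libraries and bars the mean and SD of 3. PHYB is high in ml2 and ml5 at day 7 (101 to 112 CPM), PHOT2 is high in WT at day 0 (310 to 325 CPM), and CRY2 stays between 244 and 278 CPM.

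CRY1 (AT4G08920, chromosome 4, 5723651 to 5727268, plus strand) encodes the light-stable blue-light receptor of seedling and high-light responses. For ml2 the values were 187, 177 and 178 CPM at day 7 against 448, 417 and 446 CPM at day 0. For ml5 the values were 203, 202 and 201 CPM at day 7 against 464, 490 and 472 CPM at day 0. For WT the values were 158, 153 and 154 CPM at day 7 against 516, 498 and 512 CPM at day 0. Genotypes were ordered ml5, ml2 and WT from high to low at day 7, with no overlap between them. CRY1 fell by 1.27 ± 0.04 in ml2, by 1.23 ± 0.04 in ml5 and by 1.71 ± 0.04 in WT, with a largest adjusted p of 3.66e-22 in ml5.

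CRY2 (AT1G04400, chromosome 1, 1185512 to 1188696, minus strand) encodes the cryptochrome that is degraded in blue light and promotes flowering in long days. In ml2 it had 278, 263 and 267 CPM at day 7 against 276, 270 and 278 CPM at day 0. In ml5 it had 262, 251 and 261 CPM at day 7 against 272, 266 and 270 CPM at day 0. In WT it had 250, 245 and 250 CPM at day 7 against 246, 244 and 244 CPM at day 0. The days overlapped in ml2 and WT and lay side by side without overlap in ml5. The changes were -0.03 ± 0.04 in ml2, -0.06 ± 0.04 in ml5 and 0.02 ± 0.04 in WT, with adjusted p of 0.527, 0.156 and 0.612. With library sizes alone CRY2 passed as higher in all 3 genotypes, at 0.20, 0.35 and 0.40, and with a stricter filter it passed as lower in ml5 (-0.08, adjusted p = 0.047).

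PHOT1 (AT3G45780, chromosome 3, 16816721 to 16824210, plus strand) encodes the phototropin that acts from weak blue light upwards. ml2 libraries held 258, 268 and 271 CPM at day 7 against 477, 381 and 397 CPM at day 0. ml5 libraries held 272, 268 and 269 CPM at day 7 against 488, 487 and 508 CPM at day 0. WT libraries held 229, 230 and 226 CPM at day 7 against 519, 515 and 526 CPM at day 0. The days did not overlap, and the ml2 day 0 library that stood apart was the highest of its group. PHOT1 fell by 0.65 ± 0.05 in ml2, by 0.87 ± 0.05 in ml5 and by 1.19 ± 0.05 in WT, with a largest adjusted p of 1.96e-12 in ml2.

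PHOT2 (AT5G58140, chromosome 5, 23523825 to 23533111, plus strand) encodes the phototropin that moves chloroplasts away from strong light. Levels in ml2 were 101, 106 and 104 CPM at day 7 against 206, 186 and 189 CPM at day 0. Levels in ml5 were 173, 160 and 163 CPM at day 7 against 184, 188 and 204 CPM at day 0. Levels in WT were 145, 144 and 147 CPM at day 7 against 325, 312 and 310 CPM at day 0. Levels at day 7 were lowest in ml2 and highest in ml5, and at day 0 WT stood above both lines. PHOT2 fell by 0.90 ± 0.05 in ml2 (adjusted p = 1.28e-16), by 0.22 ± 0.05 in ml5 (adjusted p = 0.000197) and by 1.12 ± 0.05 in WT (adjusted p = 2.62e-19), and in ml5 the sign turned with library sizes alone (0.19, adjusted p = 0.000866). The gene AT5G58150 lies over 2760 of its bases on the other strand with group means of 7.13 to 14.9 CPM, and whether counting used the strand is not given in the sources used here.

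UVR8 (AT5G63860, chromosome 5, 25554416 to 25559499, minus strand), the UV-B receptor, fell in every genotype. The ml2 replicates gave 73.1, 73.3 and 78.6 CPM at day 7 against 134, 135 and 132 CPM at day 0. The ml5 replicates gave 77.0, 73.8 and 77.8 CPM at day 7 against 139, 134 and 129 CPM at day 0. The WT replicates gave 73.3, 77.2 and 69.4 CPM at day 7 against 127, 122 and 128 CPM at day 0. The days lay far apart in all 3, and the genotypes overlapped at day 7. The fall was 0.83 ± 0.05 in ml2, 0.81 ± 0.05 in ml5 and 0.78 ± 0.05 in WT, and the responses differed by -0.06 ± 0.07 between ml2 and WT and by -0.04 ± 0.07 between ml5 and WT, neither of which passed. With library sizes alone the difference between ml2 and WT passed (-0.21, adjusted p = 0.0235).

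The size of the dark response differed between genotypes for most members, by the interaction term of the same fit. For ml2 minus WT, 5 of the 10 genes were called higher and PHYA lower, beside 13.4% of all genes called higher and 15.6% lower. For ml5 minus WT, 6 were called higher and PHYA lower, beside 17.4% higher and 18.1% lower. For ml5 minus ml2, PHOT2 was called higher and PHYA, PHYB and PHOT1 lower, beside 13.6% higher and 12.2% lower. These 3 comparisons share libraries with each other and with the dark comparisons above, so their values are set side by side only. The medians of the 10 genes were 0.20, 0.36 and -0.01, against 0.00, -0.01 and -0.01 over all genes tested. Without ml2 day 0 replicate 1 the median was 0.27 for ml2 minus WT and 0.02 for ml5 minus ml2. With library sizes alone, 3 were higher and 3 lower for ml2 minus WT, 6 and 1 for ml5 minus WT, and 6 and 1 for ml5 minus ml2, while the higher share of all calls was 22.8% for ml2 minus WT and 80.6% for ml5 minus ml2, against 46.3% and 52.8% with TMM.

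A positive difference here means a smaller fall or a larger rise than in WT. PHYB differed by 0.84 ± 0.08 in ml2 and 0.55 ± 0.08 in ml5 from WT (adjusted p = 8.24e-10 and 1.61e-06). PHOT2 differed by 0.90 ± 0.07 in ml5 (adjusted p = 5.34e-12) and by 0.22 ± 0.07 in ml2 (adjusted p = 0.0162). PHYE differed by 0.72 ± 0.12 in ml5 and 0.46 ± 0.13 in ml2, and CRY1 by 0.48 ± 0.06 in ml5 and 0.44 ± 0.06 in ml2. PHOT1 differed by 0.31 ± 0.08 in ml5 and 0.53 ± 0.08 in ml2, and PHYC by 0.41 ± 0.10 in ml5. PHYA was the exception in sign, with -0.88 ± 0.09 in ml5 and -0.40 ± 0.09 in ml2 relative to WT. Between the lines, ml5 minus ml2 was 0.68 ± 0.07 for PHOT2, -0.48 ± 0.09 for PHYA, -0.29 ± 0.08 for PHYB and -0.22 ± 0.08 for PHOT1. The PHOT1 value was lost with library sizes alone (-0.04), with only the libraries compared (-0.22) and without ml2 day 0 replicate 2 or 3, ml2 day 7 replicate 3, ml5 day 0 replicate 3 or ml5 day 7 replicate 2 or 3, where it lay between -0.16 and -0.22. Apart from library sizes alone, a pair of other values passed without 1 library, PHYC (0.28, adjusted p = 0.0443) without ml2 day 0 replicate 2 and PHYE (0.35, adjusted p = 0.0436) without ml2 day 7 replicate 2. PHYD, CRY2 and UVR8 passed in none of the 3 differences, with values from -0.22 to 0.02. With library sizes alone CRY2 (-0.20, adjusted p = 0.0044) and UVR8 (-0.21, adjusted p = 0.0235) passed for ml2 minus WT. In that setting UVR8 (0.20, adjusted p = 0.0324) and CRY2 (0.15, adjusted p = 0.0411) also passed for ml5 minus ml2. The PHOT2 value of ml2 was lost without WT day 0 replicate 1 (0.20, adjusted p = 0.0502) and with library sizes alone (0.07, adjusted p = 0.518). Library sizes alone also lost PHYE for ml2 minus WT (0.30, adjusted p = 0.0687) and PHYB for ml5 minus ml2 (-0.10, adjusted p = 0.341).

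Set directly against WT, both lines differed from it on both days. At day 7 in ml2, PHYB, CRY1, CRY2 and PHOT1 were higher than in WT and PHOT2 was lower, beside 13.4% of all genes called higher and 12.4% lower. At day 7 in ml5, PHYB, PHYE, CRY1, PHOT1 and PHOT2 were higher and none lower, beside 19.3% higher and 24.0% lower. At day 0 in ml2, PHYA and CRY2 were higher and PHYB, PHYC, PHYE, CRY1, PHOT1 and PHOT2 lower, counts that were equal without ml2 day 0 replicate 1, beside 21.9% higher and 22.6% lower. At day 0 in ml5, PHYA and CRY2 were higher and PHYC, PHYE and PHOT2 lower, beside 19.5% higher and 18.8% lower. Both lines were compared with the same WT libraries. The mesophyll sums given above also differed, with lower ranges in ml2 and ml5 than in WT at day 0, and at day 7 a lower range in ml2 and a higher one in ml5. Not all members went with these sums. At day 7 CA1 averaged 4.57 CPM in ml2, 1.33 CPM in ml5 and 2.73 CPM in WT. RBCS1A averaged 98.6 CPM in ml2 and 96.8 CPM in WT at day 7, and 15450 CPM in ml5 and 15220 CPM in WT at day 0. The epidermis sums were lower in both lines than in WT at day 0, the phloem sums were higher in ml5 at day 0 and lower in ml5 at day 7, and the guard cell sums were lower in both lines at day 7 and lower in ml2 at day 0, without overlap. Of the guard cell markers in ml5 at day 7, KAT1 averaged 37.1 CPM against 58.7 CPM in WT. FAMA averaged 12.2 against 12.5 CPM, and MYB60 was higher, at 4.05 against 3.78 CPM. The part of all these sums in the differences was not tested. With library sizes alone the counts were 3 higher and 1 lower in ml2 and 6 and 0 in ml5 at day 7, and 3 and 4 in ml2 and 2 and 3 in ml5 at day 0, while the higher share of all calls in ml2 was 41.2% at day 7 and 66.8% at day 0, against 51.9% and 49.3% with TMM.

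**Figure D3:**
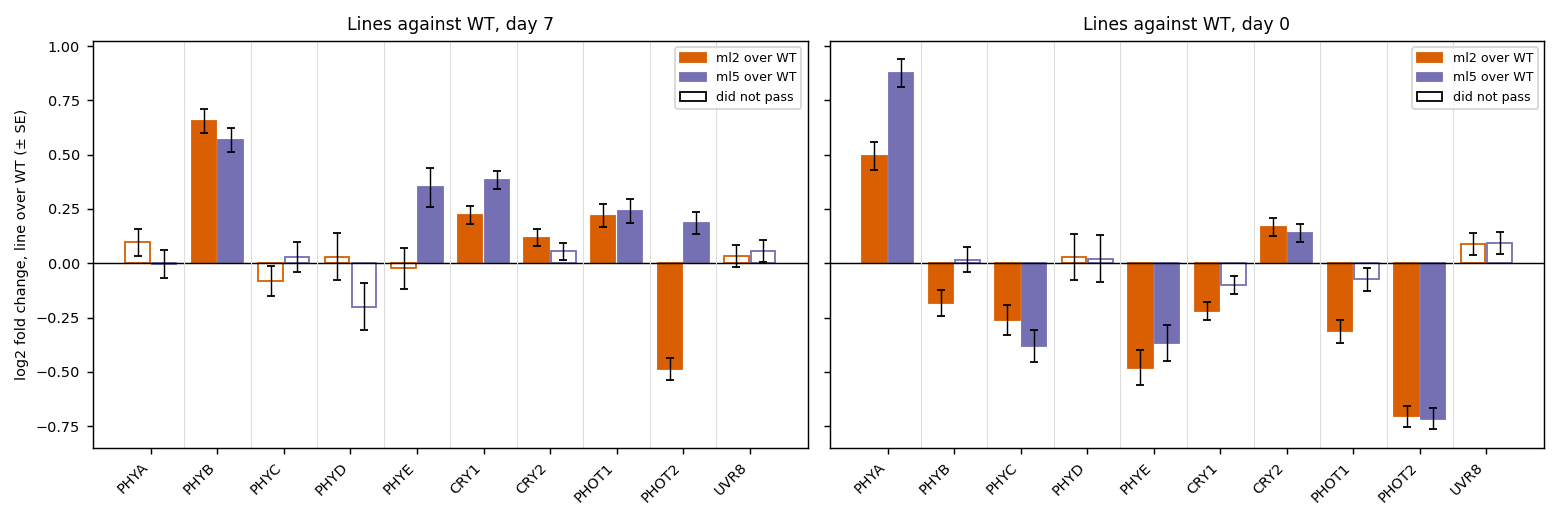
Log2 fold change of each photoreceptor gene in ml2 and ml5 over WT, at day 7 (left) and day 0 (right), with bars for the estimate, whiskers for its SE (3 libraries per group) and open bars for values that did not pass. PHYB is above WT in both lines at day 7 (0.65 and 0.57), PHYA is above WT at day 0 (0.50 and 0.88), and PHOT2 is below WT in both lines at day 0 (-0.70 and -0.72).

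At day 7 PHYB was 1.57-fold higher in ml2 than in WT (0.65 ± 0.05, adjusted p = 4.48e-11) and 1.48-fold higher in ml5 than in WT (0.57 ± 0.05, adjusted p = 4.58e-10), in 3 of 3 libraries of each line. PHOT2 went opposite ways in the lines, with -0.49 ± 0.05 in ml2 (adjusted p = 3.89e-09) and 0.19 ± 0.05 in ml5 (adjusted p = 0.00239). CRY1 was higher by 0.22 ± 0.04 in ml2 and 0.38 ± 0.04 in ml5, and PHOT1 by 0.22 ± 0.05 and 0.24 ± 0.05. PHYE was higher in ml5 (0.35 ± 0.09, adjusted p = 0.00218), with -0.02 ± 0.09 in ml2. The small CRY2 difference in ml2 (0.12 ± 0.04, adjusted p = 0.0281) was lost with library sizes alone, with no filter, and without ml2 day 7 replicate 1 or any 1 of the 3 WT libraries of day 7, with adjusted p of 0.0592 to 0.144 for the left-out libraries. In ml5, CRY2 passed as higher with only the libraries compared (0.09, adjusted p = 0.00107) and with library sizes alone (0.10, adjusted p = 0.0464), and UVR8 with only the libraries compared (0.09, adjusted p = 0.0444).

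At day 0 PHYA was 1.41-fold higher in ml2 than in WT (0.50 ± 0.06, adjusted p = 1.48e-07) and 1.83-fold higher in ml5 than in WT (0.88 ± 0.06, adjusted p = 1.52e-12). PHOT2 was lower by about the same amount in both lines, -0.70 ± 0.05 in ml2 and -0.72 ± 0.05 in ml5 (adjusted p = 2.96e-13 and 3.2e-13). PHYE was lower by 0.48 ± 0.08 in ml2 and 0.37 ± 0.08 in ml5, and PHYC by 0.26 ± 0.07 and 0.38 ± 0.07. CRY1 and PHOT1 were lower in ml2 (-0.22 ± 0.04 and -0.31 ± 0.05), where ml5 had -0.10 ± 0.04 and -0.07 ± 0.05 without passing. The CRY1 value in ml5 (adjusted p = 0.0583) passed in 6 alternatives, among them DESeq2, limma-voom and the fit without ml5 day 0 replicate 2 (-0.12, adjusted p = 0.0478). The PHYB value in ml2 (-0.18 ± 0.06, adjusted p = 0.0107) was lost without WT day 0 replicate 2 (-0.16, adjusted p = 0.0523), without ml2 day 0 replicate 2 (-0.13, adjusted p = 0.0952), with library sizes alone (-0.07, adjusted p = 0.369) and with only the libraries compared (-0.16, adjusted p = 0.0972). With library sizes alone the PHYC value in ml2 was lost as well (-0.15, adjusted p = 0.0917) and UVR8 in ml2 passed as higher (0.20, adjusted p = 0.00132).

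The 2 lines also differed from each other. At day 7, PHYE (0.37 ± 0.09), CRY1 (0.16 ± 0.04) and PHOT2 (0.67 ± 0.05, adjusted p = 1.75e-12) were higher in ml5 than in ml2 and none was lower, beside 19.0% of all genes called higher and 22.4% lower. At day 0, PHYA (0.38 ± 0.06, adjusted p = 1.84e-05), PHYB (0.20 ± 0.06), CRY1 (0.12 ± 0.04) and PHOT1 (0.24 ± 0.05) were higher in ml5 and none was lower, beside 14.2% higher and 14.5% lower. Of these 4, PHYB and CRY1 were lost when only the libraries compared were fitted and without ml2 day 0 replicate 2, and CRY1 also with no filter and without ml5 day 0 replicate 2 or 3. All 4 passed without ml2 day 0 replicate 1. PHYD, at -0.23 ± 0.11 on day 7 (adjusted p = 0.0877), passed without ml2 day 7 replicate 1 or 3 (-0.30 in both). With library sizes alone 4 were higher and 0 lower at day 7 and 2 and 2 at day 0, while the higher share of all calls was 60.0% and 26.8%, against 45.9% and 49.4% with TMM. PHOT2, with 192 CPM in ml5 and 194 CPM in ml2 on average at day 0, separated the lines at day 7, with 165 CPM in ml5 and 104 CPM in ml2.

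Levels of different genes were compared per kilobase of annotated exon. This length joins the exons of all annotated mRNAs of a gene, while the deposited counts carry a transcript identifier, so it may not match the unit counted. At day 0 CRY1 and PHOT1 led in every genotype: in WT the order was CRY1 (169 CPM per kb), PHOT1 (143), CRY2 (89.7), UVR8 (56.8), PHOT2 (44.3), PHYA (33.9), PHYB (14.7), PHYE (13.0), PHYC (10.9) and PHYD (4.29). At day 7 CRY2 led in every genotype: in WT the order was CRY2 (91.1 CPM per kb), PHOT1 (62.6), CRY1 (51.4), PHYA (48.2), UVR8 (33.2), PHOT2 (20.4), PHYB (15.3), PHYC (8.47), PHYE (4.17) and PHYD (3.09). In WT no neighbours in these orders overlapped between libraries. In the lines, the neighbours that overlapped were PHYE and PHYD in ml2 at day 7, PHYE and PHYC in ml2 at day 0, PHOT2 and PHYB in ml5 at day 7, and PHYA and UVR8 in ml5 at day 0. PHYB stood above PHOT2 in ml2 at day 7 (24.2 and 14.6 CPM per kb of exon), an order that turned per coding kilobase (31.1 and 37.8 CPM per kb). The exon length of PHOT2, 7121 bases over 7 annotated mRNAs against 2748 coding bases, lowers its level on this scale, and per coding kilobase it ranked the fourth in WT at day 0 (115 CPM per kb). Per coding kilobase CRY2 also stood above PHOT1 in ml2 at day 0 (149 and 140 CPM per kb), with overlap. In WT at day 7 PHOT1 and CRY1, CRY1 and PHYA, and UVR8 and PHOT2 then overlapped.

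The make-up of the phytochrome pool shifted with day and genotype. PHYA made up 56.7% ± 0.43 of the 5 phytochrome levels per kb of exon in ml2 at day 7 and 57.1% ± 1.84 at day 0, 54.97% ± 0.71 in ml5 at day 7 and 62.3% ± 0.58 at day 0, and 60.8% ± 1.49 in WT at day 7 and 44.2% ± 0.37 at day 0 (SD, n = 3). PHYB made up 26.6% in ml2 at day 7 and 15.5% at day 0, 26.0% in ml5 at day 7 and 14.9% at day 0, and 19.4% in WT at day 7 and 19.1% at day 0. PHYE made up 4.5% in ml2 at day 7 and 11.2% at day 0, 6.07% in ml5 at day 7 and 10.06% at day 0, and 5.25% in WT at day 7 and 16.9% at day 0. The day 7 libraries had higher PHYB shares in the lines, higher PHYA shares in WT and lower PHYE shares in all 3 genotypes than those of day 0, without overlap. The percentages depend on the length used. Per coding kilobase the PHYA share at day 0 was 49.8% in WT and 67.3% in ml5. On that scale PHYB in WT made up 17.8% at day 7 and 18.4% at day 0. The summed level had means of 91.0 and 83.5 CPM per kb in ml2 at day 7 and day 0, 87.5 and 99.7 in ml5, and 79.3 and 76.7 in WT. In ml2 at day 0 the library that stood apart had 93.8 CPM per kb, and the others had 76.6 and 80.0. The ml2 libraries of day 7 lay between 87.3 and 95.9 CPM per kb, so the days overlapped through that library only.

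**Figure D4:**
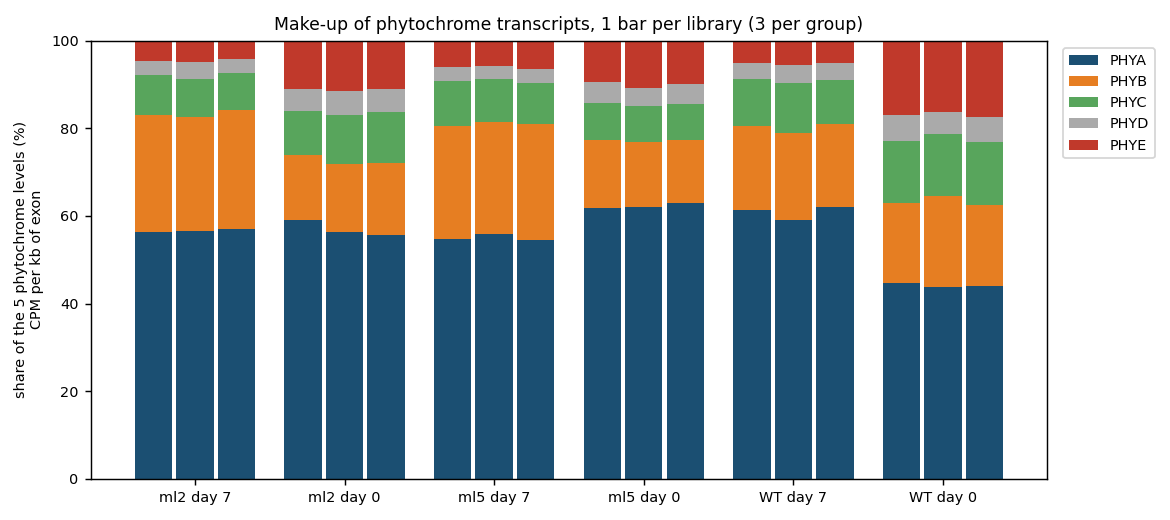
Share of each phytochrome in the sum of the 5 levels (CPM per kb of exon, in %), 1 stacked bar per library, 3 per group, with day 7 left of day 0. WT at day 0 has the smallest PHYA share (44.2%) and the largest PHYE share (16.9%), and ml2 and ml5 at day 7 have the largest PHYB shares (26.6% and 26.0%).

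Within the other families the balance moved too. The ratio of CRY1 to CRY2 per kb of exon was 0.607 ± 0.002 in ml2 at day 7 and 1.44 ± 0.04 at day 0, 0.708 ± 0.02 in ml5 at day 7 and 1.6 ± 0.06 at day 0, and 0.564 ± 0.01 in WT at day 7 and 1.88 ± 0.03 at day 0 (SD, n = 3). The ratio of PHOT1 to PHOT2 was 5.0 ± 0.07 in ml2 at day 7 and 4.21 ± 0.28 at day 0, 3.19 ± 0.10 in ml5 at day 7 and 5.03 ± 0.15 at day 0, and 3.07 ± 0.06 in WT at day 7 and 3.22 ± 0.10 at day 0. The CRY ratio crossed 1 between the days in every genotype, and the PHOT ratio was higher at day 7 than at day 0 in ml2 and lower in ml5 and WT, in each without overlap. The size of the PHOT ratio depends on the length used for PHOT2: per coding kilobase it was 2.35 ± 0.03 in ml2 at day 7 and 1.98 ± 0.13 at day 0, 1.5 ± 0.05 in ml5 at day 7 and 2.37 ± 0.07 at day 0, and 1.44 ± 0.03 in WT at day 7 and 1.52 ± 0.05 at day 0.

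Other genes of light signalling, 56 in 8 lists of which 55 were tested, gave the surroundings. The lists were drawn up from textbook knowledge of the pathway, but with earlier results of these data known, so they are no independent support. In the dark, 16 rose and 32 fell in ml2, 18 rose and 31 fell in ml5, and 13 rose and 36 fell in WT, with median log2 fold changes of -0.40, -0.43 and -0.57. These counts, and those of each list below, stand beside the 39.6% to 42.0% of all genes called higher and 39.9% to 40.2% called lower in the same comparisons; the lists are too short to be read against those shares one by one. The genes named from each list are the 2 with the smallest adjusted p in WT among those whose days do not overlap, and 12 of the loci are given by identifier only, because the annotation used here gives them no name.

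Of the 5 genes listed under bilin synthesis, the pathway of the phytochrome chromophore, 1 rose and 3 fell in ml2, 1 rose and 4 fell in ml5, and 1 rose and 3 fell in WT. HY1, the main haem oxygenase, averaged 505 ± 4.69 CPM in WT at day 7 and 148 ± 1.53 CPM at day 0 (1.77 ± 0.05, adjusted p = 3.3e-24), whereas HO2, also on this list, averaged 5.71 ± 0.11 and 29.5 ± 4.11 CPM (-2.37 ± 0.13). Among the 8 phytochrome partners, 3 rose and 4 fell in ml2, 3 rose and 4 fell in ml5, and 1 rose and 5 fell in WT. HMR, needed for phytochrome nuclear bodies, fell by 0.56 in ml2, 0.64 in ml5 and 1.1 in WT, and AT2G16365 fell by 2.30, 2.21 and 1.90. Of the 7 PIF genes, 1 rose and 5 fell in ml2, 1 rose and 6 fell in ml5, and 1 rose and 5 fell in WT. PIF7, an activator of shade growth, averaged 4.63 ± 0.76 CPM in WT at day 7 and 51.5 ± 3.29 CPM at day 0, and PIF5 averaged 77.3 ± 3.48 and 252 ± 12.1 CPM.

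In the list of the COP1/SPA ligase, DET1 and their targets, 5 of 11 tested genes rose and 5 fell in ml2, 8 rose and 1 fell in ml5, and 4 rose and 6 fell in WT. HY5, a transcription factor that promotes light development, rose by 2.84 ± 0.12 in ml2, 2.85 ± 0.12 in ml5 and 3.47 ± 0.11 in WT, and HFR1, a partner of the PIFs, by 3.95 ± 0.07, 3.94 ± 0.07 and 2.76 ± 0.08. Of the 7 listed cryptochrome partners, 2 rose and 5 fell in each genotype. AT3G44450 averaged 0.591 ± 0.24 CPM in WT at day 7 and 40.2 ± 0.16 CPM at day 0, and AT3G52740 averaged 0.659 ± 0.10 and 9.98 ± 1.3 CPM. Of 11 phototropin partners, 2 rose and 8 fell in ml2, 1 rose and 9 fell in ml5, and 1 rose and 10 fell in WT. NPH3, the scaffold of phototropic signalling, fell by 2.63 ± 0.12 in ml2, 1.73 ± 0.10 in ml5 and 3.00 ± 0.11 in WT, and JAC1, of the chloroplast accumulation response, by 1.62 ± 0.06, 0.51 ± 0.06 and 1.5 ± 0.06. The UVR8 repressor RUP1 rose in all 3 genotypes (1.24, 1.1 and 1.40), and RUP2 fell in WT (-0.57), where its values in ml2 (-0.21) and ml5 (-0.05) did not pass. The response of RUP2 differed from that of WT by 0.36 in ml2 (adjusted p = 0.115) and by 0.52 in ml5 (adjusted p = 0.0188). Among the 4 other blue-light flavoproteins, CRY3, an organelle cryptochrome that repairs DNA, averaged 18.8 ± 1.63 CPM in WT at day 7 and 4.9 ± 0.68 CPM at day 0, and ZTL, a blue-light-sensing part of the circadian clock, fell by 0.27 in ml2, 0.25 in ml5 and 0.53 in WT.

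**Figure D5:**
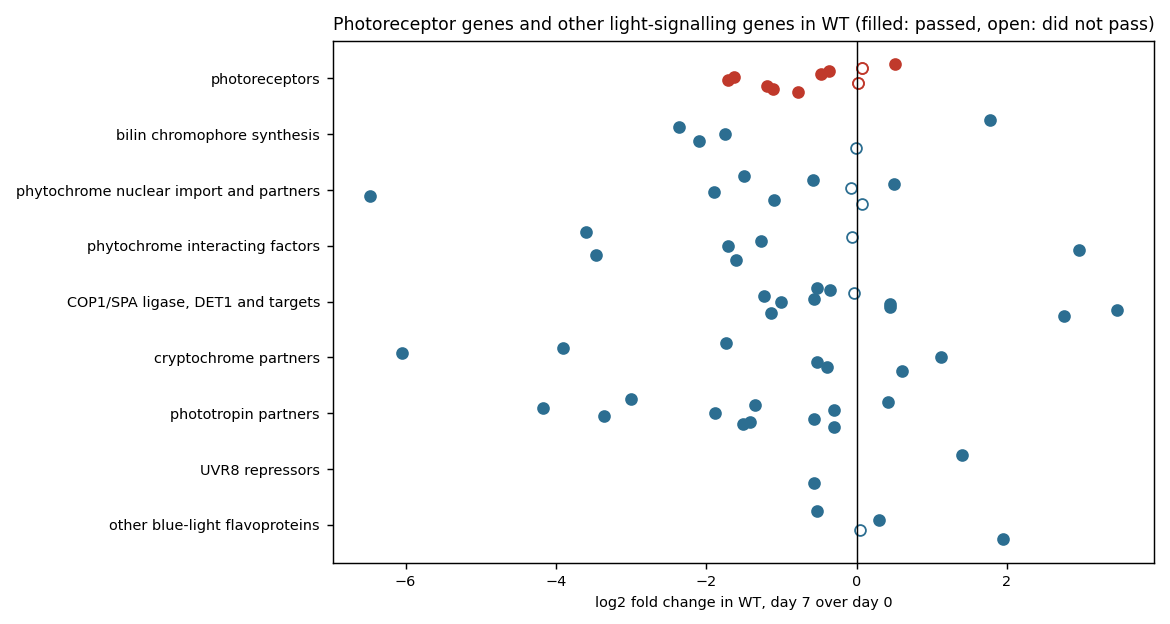
Log2 fold change in WT, day 7 over day 0, of the 10 photoreceptor genes (top) and of 55 other light-signalling genes by list; each point is 1 gene, filled where it passed. The photoreceptors lie between -1.71 and 0.51, and the other genes spread wider, from -6.47 to 3.47.

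Against WT at day 7, 11 of these 55 genes were higher and 14 lower in ml2, beside 13.4% and 12.4% of all genes, and 15 were higher and 14 lower in ml5, beside 19.3% and 24.0%. At day 0, 6 were higher and 32 lower in ml2, beside 21.9% and 22.6%, and 8 were higher and 28 lower in ml5, beside 19.5% and 18.8%. Of the 11 phototropin partners, 3 were higher than in WT, 2 lower and 6 did not pass in ml2 at day 7, and 7 were higher and none lower in ml5 at day 7. At day 0, 10 of them were lower and none higher in ml2, and 1 was higher and 6 lower in ml5. Between the lines, 17 were higher in ml5 than in ml2 and 9 lower at day 7, beside 19.0% and 22.4%, and 10 were higher and 10 lower at day 0, beside 14.2% and 14.5%. The counts of the 2 days were not compared by a test.

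The gene whose pattern over the 18 libraries was most like each member was sought among 6643 named genes with a mean of at least 5 CPM, as a description over libraries that form only 6 groups. Pearson's r of log2 CPM was highest for CRY1, with 0.998 to PRK, and then 0.995 for UVR8 with AT14A, 0.994 for PHOT1 with ACLB-1, 0.989 for PHYE with PERK10 and 0.985 for PHOT2 with RXW8. It was 0.938 for PHYD with ABCG24, 0.923 for PHYB with BT5, 0.915 for PHYA with BT4, 0.901 for PHYC with CYP706A5 and 0.882 for CRY2 with LHT1. PRK averaged 13.5 CPM in ml2 at day 7 and 1404 CPM at day 0, 24.8 and 1565 CPM in ml5, and 8.55 and 2362 CPM in WT. BT5 averaged 181 CPM in ml2 at day 7 and 28.9 CPM at day 0, 163 and 21.5 CPM in ml5, and 60.3 and 28.0 CPM in WT.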

How the data were processed

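Per the labels' protocols, TruSeq libraries were made from Trizol-extracted leaf RNA. Per the submitters' processing notes, TopHat2 2.0.12 and Bowtie2 2.0.6 were used; the notes name the builds TAIR10 and IRGSP-1.0 (rice) without giving the role of each. Rows of the deposited counts carry a transcript identifier, such as AT1G09570.3 for PHYA and AT5G58140.2 for PHOT2, whose suffix was removed. Whether a row counts that transcript or the whole gene cannot be told from the values. The authors deposited estimated counts, judged from the values: 97.12% are whole numbers (tolerance 0), and 0 members had a fractional value. Which tool counted them, and whether by strand, is not stated in those notes.

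Expected counts were rounded, scaled by TMM and tested with edgeR 4.0.16 (R 4.3.3) by the quasi-likelihood F test, with 6 group means over all 18 libraries and no replicate block. filterByExpr with a minimum count of 10 left 19493 genes tested and 8135 not tested; all 10 members passed. Two-sided p-values were adjusted over all tested genes of a comparison (Benjamini-Hochberg) and called under 0.05. The biological coefficient of variation shared by all genes was 5.63%. SE come from the fit and SD from 3 libraries; counting intervals would cover counting error only. An exact permutation test of 3 against 3 could not go below 0.1. The script was tested on simulated counts in which few genes changed. Such data cannot check TMM scaling where most genes were called, as in the dark comparisons here. Members, lists and named-gene rule were chosen with earlier results of these data known, so they are no independent support. Promoters were read from RefSeq TAIR10.1, and lengths were taken from its annotation. Same-numbered replicates of different groups did not deviate together, so the numbers were not used as pairs. Alternatives were RLE factors, library sizes alone, 2 other filters, DESeq2 1.42.0, voom of limma 3.58.1, organelle genes left out, only the libraries compared, a replicate block and each library left out; coding in place of exon length for shares was added after the data were seen.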

Additional observations from a re-analysis of the deposited data

Results flagged for a closer look

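The dark response is the log2 fold change, day 7 over day 0. Over the 10 genes and 3 differences, 17 values passed the test of the difference between genotypes. Among all genes tested, 13.4% were called higher and 15.6% lower for ml2 minus WT. The shares were 17.4% and 18.1% for ml5 minus WT, and 13.6% and 12.2% for ml5 minus ml2. The 3 differences share libraries. Relative to WT, the response in ml2 differed by -0.40 for PHYA, 0.84 for PHYB, 0.46 for PHYE, 0.44 for CRY1, 0.53 for PHOT1 and 0.22 for PHOT2. Relative to WT, the response in ml5 differed by -0.88 for PHYA, 0.55 for PHYB, 0.41 for PHYC, 0.72 for PHYE, 0.48 for CRY1, 0.31 for PHOT1 and 0.90 for PHOT2. The response in ml5 minus that in ml2 was -0.48 for PHYA, -0.29 for PHYB, -0.22 for PHOT1 and 0.68 for PHOT2. With library sizes alone, PHYE and PHOT2 of ml2 relative to WT and PHYB and PHOT1 of ml5 minus ml2 did not pass. PHOT2 of ml2 relative to WT was also lost without WT day 0 replicate 1. PHOT1 of ml5 minus ml2 was also lost with only the libraries compared and without several single libraries, as given above. Groups of 3 libraries are too small for a test of single outlying samples.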

How the results depend on the processing

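Of 120 photoreceptor results, 85 kept their call under every alternative run. Over 1980 alternative values, 1907 kept the call, 36 no longer passed, 30 came to pass, and 7 that passed in at least 1 of the fits changed sign. Another 53 values, which passed in neither, also changed sign, for example CRY2 in WT (-0.01 with only the libraries compared). The 7 came with library sizes alone, which also moved the median of all genes: PHYC became 0.0148 in WT and 0.0408 in ml2, CRY2 0.20 in ml2 and 0.35 in ml5, PHYA 0.0381 and PHOT2 0.19 in ml5 (day 7 over day 0), and CRY2 0.15 for the dark response of ml5 minus ml2. In the same setting RUP2 became 0.36 and ZTL 0.16 in ml5 (day 7 over day 0). The photoreceptors called for ml5 against ml2 at day 0 were 4, but 2 with only the libraries compared and 2 to 4 with single libraries left out. For the dark response of ml5 minus ml2 they were 4, but 7 with library sizes alone and 3 to 5 with single libraries left out. The cause was not tested. With a replicate block the counts of called members were as before, for example 8 of the 10 in WT after darkness, and the correlations of same-numbered deviations lay between -0.12 and 0.08. Per coding kilobase some ranks moved, and by Spearman's rho 9 of the 10 most similar genes were others. Depth limits PHYD most, with 11.3 to 18.5 CPM on average.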
